A study of Mus musculus with 16 samples.

Results

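Zinc finger protein genes were followed through the chromatin of mouse haploid spermatids, from their transcription starts to their last exons. The set was every autosomal protein-coding gene of the GENCODE vM21 annotation (GRCm38, mm10) whose symbol is Zfp followed by a digit, which gave 385 Zfp genes of the 20722 autosomal protein-coding genes. The symbol alone chose them, and no measured value entered the choice. Their gene bodies had a median length of 17.4 kb and ranged from 1.59 kb to 576 kb, and the median last exon was 2501 bp long.

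Most genes of this family encode C2H2 zinc finger proteins, in which each finger folds around a zinc ion held by a pair of cysteines and a pair of histidines and reads a few bases of DNA. In many of them the fingers stand side by side in an array encoded by the last exon, and a KRAB domain encoded by earlier exons recruits the corepressor TRIM28 and the methyltransferase SETDB1. KRAB zinc finger genes often lie in clusters that grew by tandem duplication, and the 3′ exons of such genes are known to carry H3K9me3, the histone mark of heterochromatin, while their promoters can remain active. H3K4me3 marks active and poised promoters, and H3K27me3 is the mark laid down by Polycomb repressive complex 2.

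The 385 genes were on 19 autosomes, with 92 on chromosome 7, 46 on chromosome 17, 36 on chromosome 13, 30 on chromosome 4 and 28 on chromosome 2. Runs of at least 5 Zfp genes whose neighbours were no more than 500 kb apart were called clusters, and 17 such clusters held 184 genes, which left 201 dispersed genes. From the translated coding sequences, 264 genes had at least 8 C2H2 finger motifs, 87 had 2 to 7 and 34 had at most 1, and the median was 10. The 34 include proteins that carry the family name for another kind of finger, such as Zfp36, an RNA-binding protein with CCCH fingers. A sequence match to the KRAB domain was found in 182 genes, 120 of them clustered and 62 dispersed. The finger array lay in the last exon in 303 genes.

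The animals were non-mated males at 2 months of age, in 2 sibling pairs, and each pair gave a KO male with disrupted H2A.B genes and a WT brother. H2A.B is a short histone variant of the testis encoded by 3 genes on the X chromosome, and the KO line had been made with CRISPR/Cas9 and backcrossed to C57BL/6J. Haploid spermatids were sorted live by their DNA content, and AutoCUT&RUN, in which an antibody tethers a nuclease that cuts out the chromatin it binds, was run on each animal with antibodies to H3K4me3, H3K27me3 and H3K9me3 and with IgG as the control. The 16 libraries made 8 groups of target and genotype with 2 animals in each. The edited genes lie on the X chromosome and were not among the regions counted, so genotypes were taken from the labels.

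Each fragment was counted once per library, and a level is the number of distinct fragments per kb of a region per 1000000 distinct autosomal fragments of that library. H3K9me3 libraries held 3136799 to 3963850 distinct autosomal fragments, H3K4me3 libraries 708411 to 3229214 and H3K27me3 libraries 196218 to 3773436, against 140181 to 236269 for IgG. The IgG control was thus the shallowest, and at single exons many of its counts were 0. Errors and limits from counts cover counting error only. The sorted cells carried H3K4me3 at the starts of spermatid genes, where 12 of 13 markers (protamines, transition proteins, acrosome and testis-specific kinase genes) had more H3K4me3 than IgG. The exception was the protamine gene Prm1, at 0.830. The 4 markers of meiotic prophase tested of 5 were called too, while of 5 spermatogonial and 9 somatic testis markers 1 each had enough fragments to test and neither was called. Over all starts tested 74.9% were called in that direction, so such a call alone does not mark a cell type. The median H3K4me3 level at the start was 9.52 for the spermatid, 8.85 for the meiotic, 0.653 for the spermatogonial and 0.161 for the somatic markers. The pooled nuclei do not show whether a low level comes from few marked cells or from little mark in each. A start is the outermost annotated 5′ end of a gene, and promoters more than 1 kb from it were not counted.

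The last exons of these genes mostly hold the finger array, and its sequence decides how well reads can be told apart between neighbours. The first 3 fingers of the array are shown for Zfp980 (chr4:145701459-145701689) and Zfp987 (chr4:146124723-146124953), both in a cluster on chromosome 4, and for Zfp180 (chr7:24105115-24105345), the clustered gene with the highest H3K9me3 outside it. They are written 5′ to 3′ on the + strand of GRCm38, 231 bases each, all within the coding part of the last exon. Capitals mark the codons of the cysteines and histidines that hold the zinc.
Zfp980: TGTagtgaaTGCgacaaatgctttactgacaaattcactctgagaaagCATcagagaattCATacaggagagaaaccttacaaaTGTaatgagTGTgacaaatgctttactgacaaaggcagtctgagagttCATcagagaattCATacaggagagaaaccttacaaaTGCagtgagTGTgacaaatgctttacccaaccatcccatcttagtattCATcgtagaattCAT
Zfp987: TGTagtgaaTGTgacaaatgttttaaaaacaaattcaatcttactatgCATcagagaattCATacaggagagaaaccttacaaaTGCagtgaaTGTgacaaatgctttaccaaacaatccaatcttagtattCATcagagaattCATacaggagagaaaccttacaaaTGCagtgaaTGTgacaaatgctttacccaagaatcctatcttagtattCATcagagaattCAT
Zfp180: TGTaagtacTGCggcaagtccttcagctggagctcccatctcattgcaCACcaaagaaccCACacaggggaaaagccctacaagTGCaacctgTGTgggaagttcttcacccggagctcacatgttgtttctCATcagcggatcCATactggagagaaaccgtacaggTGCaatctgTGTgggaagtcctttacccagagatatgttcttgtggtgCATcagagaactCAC

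Zfp980 and Zfp987 had the same base at 202 of the 231 positions (87.45%), while Zfp180 shared 60.61% with Zfp980 and 62.77% with Zfp987. Over the 4 H3K9me3 libraries, 129 distinct fragments were centred in the stretch of Zfp980, 79 in that of Zfp987 and 43 in that of Zfp180, and IgG had 0 in each. The capitals fall at the same positions in all 3 stretches, which is the finger repeat itself. The similarity between genes of a cluster bears on the counts, since the reads were 25 bases long. Of the words of 25 bases in the last exons of the chromosome 4 cluster, a median of 9.0% occurred once in the genome, against 94.6% over the 385 genes, 89.6% over the clustered genes and 96.9% over the dispersed genes. A fragment from one gene of that cluster can therefore have been placed on another, and its values are best read for the cluster as a whole.

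The promoters at the other end of the gene are shown for Zfp78, whose start carried one of the highest H3K4me3 levels of the set, and for Zfp980, whose start carried little. Each is the 250 bases before the RefSeq start on the + strand of GRCm38.p6, at chr7:6363058-6363307 for Zfp78 and chr4:145670447-145670696 for Zfp980, with the dinucleotide CG in capitals.
Zfp78: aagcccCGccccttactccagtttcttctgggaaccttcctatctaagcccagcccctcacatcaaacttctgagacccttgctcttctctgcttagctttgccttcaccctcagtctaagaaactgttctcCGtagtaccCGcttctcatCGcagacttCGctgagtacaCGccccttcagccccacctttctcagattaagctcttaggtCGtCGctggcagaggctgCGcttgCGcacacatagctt
Zfp980: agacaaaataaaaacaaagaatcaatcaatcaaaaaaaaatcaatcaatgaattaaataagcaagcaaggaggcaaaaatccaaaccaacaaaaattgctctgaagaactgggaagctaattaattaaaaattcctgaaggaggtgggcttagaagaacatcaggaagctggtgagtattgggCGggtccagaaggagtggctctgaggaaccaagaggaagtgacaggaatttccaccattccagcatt

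CG reads the same on both strands. The Zfp78 stretch holds 10 of them and the Zfp980 stretch 1. RefSeq promoter windows of 300 bases (250 before the start and 50 after it) were matched for 290 of the 385 genes. A match needed a RefSeq start within 1 kb of the gene start used here. The median number of CG in a window was 14 for the Zfp genes and 17 for the other autosomal genes, and windows with at least 10 made up 67.93% and 64.91% of them. In this comparison the other genes included olfactory and vomeronasal receptor genes. Almost every window held at least 1 CG, 99.66% of those of Zfp genes and 96.81% of the others. Zfp genes called for H3K4me3 at their start had a median of 17 CG, those tested and not called 10, those with too few fragments to test 9, and the 10 matched genes of the chromosome 4 cluster 5.

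Zfp starts carried H3K4me3 at much the same level as the starts of other genes. Other genes, here and below, are the 18883 autosomal protein-coding genes that are neither Zfp genes nor olfactory or vomeronasal receptor genes. Within 1 kb of the start, the pooled level was 4.87 ± 0.483 (SD, n = 4 libraries) for the 385 Zfp genes and 4.80 ± 0.487 for the other autosomal protein-coding genes, with 4.69 ± 0.514 for clustered and 5.04 ± 0.459 for dispersed Zfp genes. IgG was at 0.421 ± 0.0256 over the Zfp starts and at 2.42 ± 0.844 over those of other genes. By limma-voom with Benjamini-Hochberg adjustment over all starts tested, 206 of the 305 Zfp genes with enough fragments had more H3K4me3 than IgG. This was a smaller share than the 74.9% of all starts tested that were called in that direction. Leaving out libraries of 1 animal at a time moved the 206 to between 175 and 203. Scaled by the median of ratios it was 68, where 26.5% of all starts were called.

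The 6 named for the largest difference from IgG were Zfp78, Zfp689, Zfp933, Zfp944, Zfp758 and Zfp706, and IgG had no fragment at any of these starts. Zfp78, a KRAB gene of 11 fingers on chromosome 7, had H3K4me3 levels of 18.4 and 12.7 in the KO and 18.3 and 17.1 in the WT animals (adjusted p = 8.45e-05). Zfp689, also on chromosome 7, had 18.0 and 23.2 in KO and 8.47 and 19.6 in WT (adjusted p = 8.83e-05), and its animals therefore spread far more than those of Zfp78. Zfp933 lies at the edge of the chromosome 4 cluster and was its exception, with 16.8, 16.9, 16.9 and 13.5 in the first and second KO and the first and second WT animal. Zfp944 and Zfp758 lie next to each other in opposite orientation on chromosome 17, and their start windows share fragments, so their near-identical means of 15.8 ± 3.73 and 15.6 ± 3.55 are not separate measurements. Zfp706, a dispersed gene on chromosome 15 with 1 finger motif, had 14.7 ± 2.63.

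**Figure D1:**
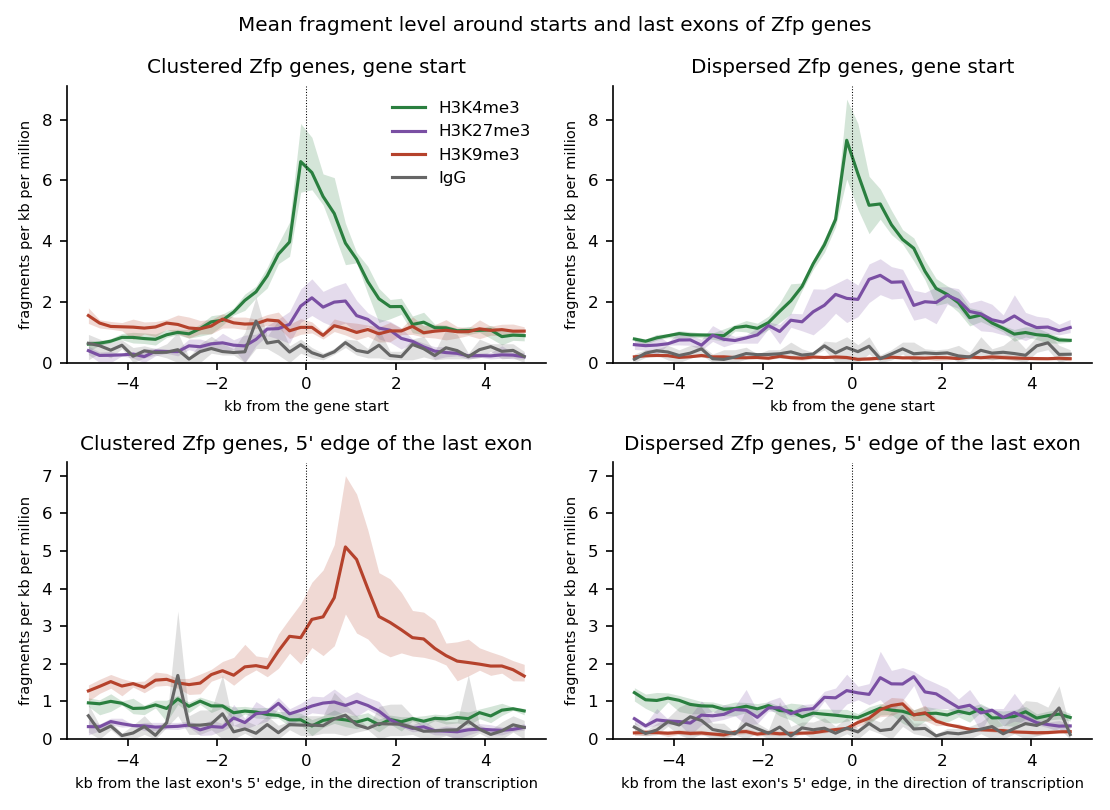
Mean level (distinct fragments per kb per 1000000, y axis) in steps of 0.25 kb around the gene start (upper panels) and the 5′ edge of the last exon (lower panels) of the 184 clustered (left) and 201 dispersed (right) Zfp genes, where lines are the mean and bands the range of the 4 libraries of each target. H3K4me3 peaks at the start of both groups (6.61 in clustered and 7.32 in dispersed genes), and H3K9me3 peaks inside the last exon, at 5.11 in clustered and 0.937 in dispersed genes.

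H3K27me3 at Zfp starts was uneven, high at a few genes and near 0 at most. The pooled level was 1.99 ± 0.460 (SD, n = 4 libraries) against 3.77 ± 0.458 at the starts of other genes, and the median gene had 0.215. More H3K27me3 than IgG was called at 51 of the 119 Zfp starts tested, where 63.0% of all starts tested were called in that direction. Genes with at most 1 finger stood at 3.96 ± 0.654 and genes with at least 8 at 1.71 ± 0.490. The highest were Zfp503 (developmental regulator of the Nlz family) and Zfp703 of the same family, neither with a C2H2 match, and Zfp575 with 6 fingers. At the start of Zfp503 the levels were 32.2 and 26.3 in KO and 25.8 and 38.2 in WT, at that of Zfp575 28.6, 21.2, 27.6 and 28, and at that of Zfp703 28.9, 28.5, 22.0 and 20.4. In these 3 genes IgG was at 0 in all 4 libraries at the start, each adjusted p was 9.66e-06, and the mean H3K4me3 level was at most 0.355. Zfp423, a developmental transcription factor with 27 fingers, had 19.4 ± 7.95, while its paralog Zfp521 had 0.670 ± 0.779 and was not called.

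H3K9me3 showed the reverse layout along the gene, low at the start and highest in the last exon. Over the last exons of the 385 genes the pooled level was 1.83 ± 0.487 (SD, n = 4 libraries, range 1.36 to 2.39), against 0.329 ± 0.143 for IgG and 0.507 ± 0.104 for H3K4me3. Other autosomal genes had 0.410 ± 0.0525 and olfactory receptor genes, the largest clustered family of the genome, 0.252 ± 0.0416. Vomeronasal receptor genes had 0.967 ± 0.0820 at the last exon and 1.34 ± 0.127 at the start, so in them H3K9me3 was not concentrated at the 3′ end. The chromosome 4 cluster held 53.1% of the H3K9me3 fragments in Zfp last exons with 3.88% of their length. Whether Zfp genes stand above vomeronasal receptor genes without that cluster was not tested. Among Zfp genes the marking was concentrated in few: the median gene had 0.206, 73 genes were above 2 and 30 above 5, and 32 had no fragment.

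The contrast between the ends of the gene was tested over libraries, for the 379 Zfp genes whose last exon lies outside the start window. The log2 ratio of the last-exon level to the start level was 2.05 and 0.88 in the KO and 1.97 and 1.05 in the WT H3K9me3 libraries, and -3.94, -3.18, -3.80 and -3.15 in the H3K4me3 libraries in the same order. The targets did not overlap, and their means differed by 5.0 on the log2 scale (two-sided exact permutation test, 4 against 4 libraries, p = 0.0286, the smallest it can give). H3K4me3 marks promoters in general. The same contrast was not computed for other genes, so whether it is particular to Zfp genes was not tested. Set against the other genes with IgG as the reference, the Zfp genes had 2.3 more H3K9me3 at last exons on the log2 scale (exact permutation p = 0.0286), and against olfactory receptor genes 2.61 more (exact permutation p = 0.0286). Taken as the mean over genes of the log2 level, which weights every gene alike, these differences were 1.19 and 0.93. The one from olfactory receptor genes was 1.77 without the chromosome 4 cluster and 1.38 for Zfp genes with over 90% unique words. Each of these had an exact permutation p of 0.0286. The filter on unique words was applied to the Zfp genes only, not to the genes they were compared with. When every deposited fragment was counted, copies included, the difference from other genes was 1.24 with an exact permutation p of 0.0571. Restricted to the 229 Zfp genes with over 90% unique words in the last exon it was 1.06, and without the chromosome 4 cluster 1.45, each with an exact permutation p of 0.0286.

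Within the gene, the last exon also stood above the rest of the body. The log2 ratio of the last exon to the body outside the last exon and the start window was 1.5 ± 0.475 (SD, n = 4) for H3K9me3 and -0.58 ± 0.783 for IgG over the 385 genes, a difference of 2.08 (exact permutation p = 0.0286). In dispersed genes the ratios were 1.78 for H3K9me3 and -0.75 for IgG (exact permutation p = 0.0286), and in clustered genes 0.60 and -0.54, whose difference of 1.13 did not pass the test (exact permutation p = 0.0857). Pooled, the clustered genes had H3K9me3 in the rest of the body as well, at 1.98 ± 0.166, where the dispersed genes had 0.164 ± 0.0206. This was not shared by all clusters. The chromosome 4 cluster had 8.43 ± 0.727, the chromosome 13 cluster 1.62 ± 0.312 and a cluster of 7 genes on chromosome 7 1.53 ± 0.265. All other clusters lay between 0.122 and 0.440. The finger array within the last exon had more H3K9me3 per kb than the rest of that exon, by 0.82 ± 0.219 on the log2 scale, but IgG gave 0.98 ± 0.384 for the same ratio, and no difference between the targets passed the test (exact permutation p = 0.457).

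By limma-voom over all last exons tested, 116 of the 243 Zfp genes tested had more H3K9me3 than H3K4me3 in the last exon, where 18.1% of all last exons tested were called in that direction. The opposite, more H3K4me3 than H3K9me3, was called for 56 of them, where 55.6% of all last exons were. Scaled to the autosomes plus X and Y the numbers were 103 and 70, where 13.9% and 62.6% of all last exons were called. Scaled by the median of ratios in place of the autosomal total, which moved the median over all last exons from -2.0 to 0.32 on the log2 scale, the numbers were 172 and 14, where 37.7% and 29.7% of all last exons were called. The call reached 81 of 141 clustered and 35 of 102 dispersed genes, 89 of 136 with a KRAB match and 27 of 107 without, and 98 of 184 with at least 8 fingers. It reached 35 of the 126 tested genes with over 90% unique words, and 49 of those 126 were called for more H3K4me3 instead. Among the 41 tested genes with under 50% unique words, 36 were called for H3K9me3 and 1 for H3K4me3. Against the shallow IgG libraries, 20 of the 183 Zfp genes tested had more H3K9me3 in the last exon, where 3.09% of all last exons tested were called in that direction. Over all last exons limma-voom also called 126 lower than the shallow IgG and 66 higher, where a quasi-Poisson model called 3 lower and 0 higher, so calls below IgG are not used. Without a filter 244 Zfp genes were called lower than IgG, with limma-trend 62 and with the animal as a block 54. The 20 called higher depended on the fit. It was 55 with every fragment (272 of all 4712 last exons tested), 36 with any overlap (123 of 2349) and 63 without a filter (250 of 14427). It was 61 with limma-trend (238 of 2134) and 48 with the animal as a block (170 of 2134). Scaled to the autosomes plus X and Y it was 14 (49 of 2134), and by the median of ratios it was 18 (71 of 2134). It was 0 without the first KO animal, 3 without the second KO, 10 without the first WT and 1 without the second WT, and 0 with a quasi-Poisson model, while the 116 moved to between 108 and 113 when animals were left out.

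Of the 20 called against IgG, 13 lie in the chromosome 4 cluster, 6 in other clusters (Zfp180, Zfp329, Zfp458, Zfp595, Zfp759 and Zfp945) and 1, Zfp619 with 33 fingers, is dispersed. Those not already covered by the rule for named genes were named after their values were seen. Zfp619, a KRAB gene on chromosome 7, had 1.73 and 1.53 in KO and 1.45 and 1.57 in WT, with no IgG fragment.

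The chromosome 4 cluster (chr4:145510759-147848366) held 18 genes, all with a KRAB match, and was first in each of the 4 H3K9me3 libraries. Its last exons had H3K9me3 levels of 34.9 and 15.2 in the first and second KO animal and 30.8 and 18.6 in the first and second WT animal, a mean of 24.9 ± 9.47 against 1.19 ± 0.707 for IgG. The first animals of both genotypes were thus higher than the second ones, and KO and WT overlapped. First and second animals also had different date codes, so animal and date cannot be told apart. The cluster took 53.1% of the H3K9me3 fragments in Zfp last exons with 3.88% of their length. H3K9me3 covered its genes beyond the last exon, at 8.43 ± 0.727 in the rest of the body and 8.27 ± 0.997 around the starts. The pooled H3K4me3 level at the starts was 1.63 ± 0.236, against 1.19 ± 0.811 for IgG. Zfp933 was the highest there, and the median gene of the cluster had 0.595 for H3K4me3 and 1.16 for IgG. At the median start of this cluster H3K4me3 was thus not above the control. All 18 were called for more H3K9me3 than H3K4me3 at the last exon, and 1 of the 10 tested, Zfp933, was called for H3K4me3 over IgG at the start. The aligner placed these fragments among near-identical copies, a median of 5.5 copies a word, and the part this plays in the level of any one gene was not tested.

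Within it, Zfp978, a gene with 3 fingers, was highest, at 67.4 and 27.9 in KO and 57.1 and 28.5 in WT. Zfp988, with 14 fingers, had 53.9, 17.7, 43.5 and 25.7 in the first and second KO and the first and second WT animal, and Zfp600, with 17 fingers, 48.1, 17.3, 45.9 and 24.9. In each of these genes the first animal was above the second one in KO as in WT. Zfp980 (chr4:145670685-145704441, + strand) had 44.3, 17.1, 45.8 and 26.0 at its last exon, against a mean H3K4me3 level of 0.730 ± 0.508 at its start, and differed between H3K9me3 and H3K4me3 at the last exon by 4.39 ± 0.42 (log2, SE, limma-voom adjusted p = 3.65e-09). Zfp987 had 37.2, 15.3, 36.9 and 20.3 with no IgG fragment, which is at least 16.1-fold over the level that 3 fragments in the 4 IgG libraries together would give. Zfp534, Zfp981 and Zfp992 had means of 32.7 ± 14.8, 27.6 ± 9.49 and 32.2 ± 7.75. Zfp979, also named after its values were seen, had 5.27 ± 0.843 and Zfp933 0.740 ± 0.168, the lowest of the cluster, and Zfp933 was also the gene with the most unique last exon (79.8% unique words).

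**Figure D2:**
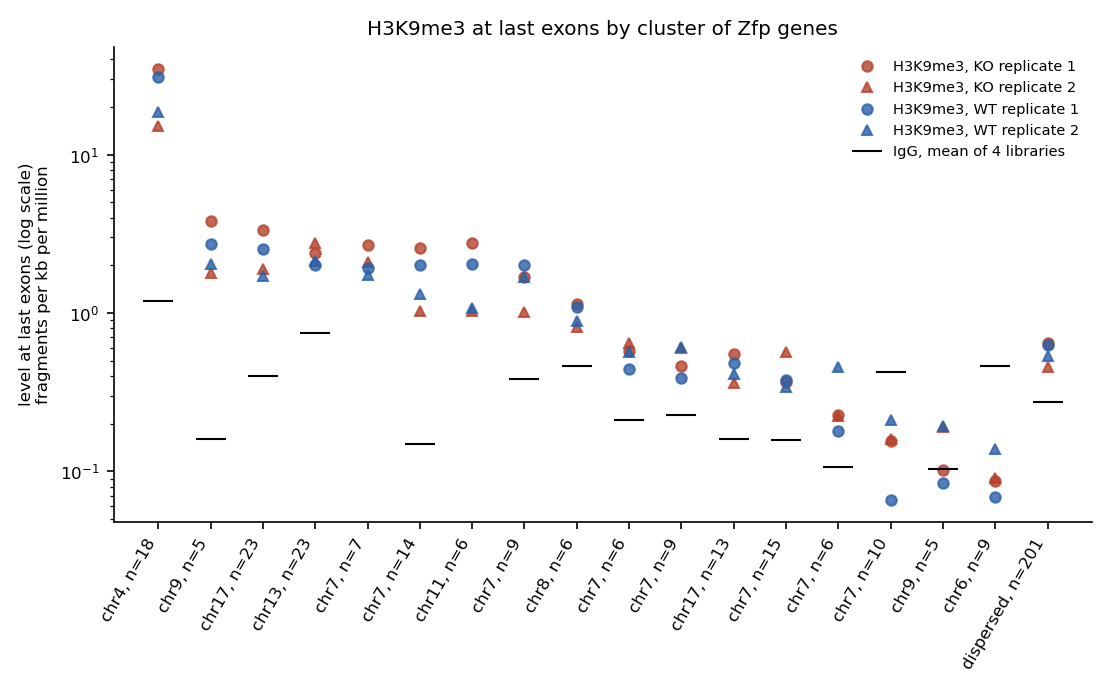
H3K9me3 level at the last exons (log scale, distinct fragments per kb per 1000000) of each of the 17 clusters and of the 201 dispersed Zfp genes, with a point for each library and a black bar for the mean of the 4 IgG libraries (no bar where IgG had no fragment). The chromosome 4 cluster lies at 15.2 to 34.9, all other clusters at or below 3.78, and the lowest cluster, on chromosome 6, has a mean of 0.0959 under its IgG mean of 0.461.

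The other 16 clusters ran from 2.59 to 0.0959. On chromosome 9, a cluster of 5 genes (chr9:22055411-22307648) had 2.59 ± 0.891 at last exons. The 23 genes at chr17:21008903-23599487 had 2.37 ± 0.731, the 23 genes at chr13:67038596-67827002 had 2.33 ± 0.326 and 7 genes on chromosome 7 had 2.11 ± 0.412. These 4 were within each other's spread, and their order changed from library to library. Clusters of 14 genes on chromosome 7 (1.73 ± 0.692), 6 on chromosome 11 (1.72 ± 0.831), 9 on chromosome 7 (1.60 ± 0.419) and 6 on chromosome 8 (0.987 ± 0.154) followed. At the other end, 10 genes on chromosome 7 at chr7:127233061-127885996 had 0.148 ± 0.0602, 5 on chromosome 9 had 0.143 ± 0.0576 and 9 on chromosome 6 had 0.0959 ± 0.0293, against IgG means of 0.426, 0.103 and 0.461. The chromosome 6 cluster, with a KRAB match in 3 of 9 genes, was thus clustered with an H3K9me3 level no higher than the control.

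H3K4me3 at the starts did not mirror this order. The cluster at chr7:127233061-127885996 had 8.72 ± 1.58, and the chromosome 6 cluster 4.94 ± 0.731, but the chromosome 13 and the larger chromosome 17 cluster, both with H3K9me3 in the last exons, had 4.48 ± 0.658 and 4.53 ± 0.813. The chromosome 13 cluster and the cluster of 7 genes on chromosome 7 also carried H3K9me3 in the rest of the body, at 1.62 ± 0.312 and 1.53 ± 0.265, against 0.189 ± 0.0628 in the chromosome 9 cluster of similar last-exon level.

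The gene with the highest last exon in each cluster shows how the marking was shared. Zfp180 (chr7:24081924-24107713, + strand, 12 fingers, no KRAB match) had 25.2 and 7.87 in KO and 19.8 and 10.6 in WT with no IgG fragment (at least 12.6-fold over the limit of 3 IgG fragments), in a cluster whose mean was 1.73. Its start carried H3K4me3 at 4.46 ± 1.27 and was called against IgG (adjusted p = 0.00159), and 98.4% of the words in its last exon were unique. Zfp995 of the larger chromosome 17 cluster had 8.21 ± 3.75, Zfp2 on chromosome 11 had 7.46 ± 3.44 and Zfp936 on chromosome 7 had 6.01 ± 1.96. Only 44.5% of the words in the last exon of Zfp995 and 39.8% in that of Zfp936 were unique, so their levels can be shared with copies. Zfp110, which encodes a neurotrophin receptor interacting factor, had 5.06 ± 1.43, and Zfp458 with 20 fingers on chromosome 13 had 4.83 ± 1.51. Zfp930 on chromosome 8 had 4.66 ± 1.0, Zfp810 on chromosome 9 had 4.07 ± 1.54 and Zfp763 on chromosome 17 had 3.67 ± 1.23. Each of these 9 genes had more H3K9me3 than H3K4me3 in its last exon, with limma-voom adjusted p between 1.03e-08 and 2.28e-06. They were picked as the highest of their clusters in these same libraries, which favours such a call. Over all last exons tested 18.1% were called in that direction. Zfp763 lies in a cluster whose mean was only 0.452. The leading genes of the other clusters with a mean under 0.6 stood lower. Zfp583 had 1.98 ± 0.490, Zfp420 had 2.0 ± 0.663 and Zfp850 had 1.18 ± 0.219. Zfp579 had 0.692 ± 0.25, Zfp560 had 0.490 ± 0.0260, Zfp764 had 0.431 ± 0.287 and Zfp467 had 0.195 ± 0.0701. The start of Zfp467 carried H3K27me3 at 24.6 ± 3.02, that of Zfp579 at 22.0 ± 3.69 and that of Zfp764 at 13.6 ± 3.99, and all 3 were called against IgG (adjusted p of at most 6.55e-05).

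Clustered genes had more H3K9me3 at last exons than dispersed genes, at 3.07 ± 0.884 against 0.565 ± 0.0874, with IgG at 0.385 ± 0.224 and 0.272 ± 0.0895. The log2 ratio of clustered to dispersed genes was 2.66 and 2.29 in the KO and 2.50 and 2.19 in the WT H3K9me3 libraries and lay between -0.07 and 1.17 in IgG, a difference of 2.01 (exact permutation p = 0.0286). It was 1.03 without the chromosome 4 cluster and 1.93 among genes with over 90% unique words, each with an exact permutation p of 0.0286. With neighbours at most 250 kb apart in a cluster it was 1.19, and as a mean over genes of the log2 level 1.34, again with an exact permutation p of 0.0286. Without the chromosome 4 cluster the clustered genes had 1.26 ± 0.193.

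Among dispersed genes the level went with the KRAB match. The 62 dispersed genes with a match had 1.32 ± 0.286 at last exons and those without had 0.260 ± 0.0224, with IgG at 0.387 ± 0.131 and 0.225 ± 0.0983. More H3K9me3 than H3K4me3 was called in 23 of 41 tested genes of the first kind and 12 of 61 of the second. Over all last exons tested 18.1% were called in that direction, a share near that of the second kind. The difference between dispersed genes with and without a match is a description and was not tested. Of the 201 dispersed genes, 26 had under 50% unique words in the last exon, and this split was not repeated without them. Zfp808 on chromosome 13, a KRAB gene with 22 fingers, was the highest dispersed gene, at 16.8 and 7.51 in KO and 19 and 11.1 in WT with an IgG mean of 1.57, and was picked out after its values were seen. Only 16.4% of the words of its last exon were unique, so its level is shared with copies as in the chromosome 4 cluster.

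The number of fingers was a second axis along which the genes differed. Genes with at least 8 fingers had 2.15 ± 0.590 and genes with at most 1 finger 0.341 ± 0.0643, with IgG at 0.358 ± 0.156 and 0.312 ± 0.126. Relative to IgG the log2 difference was 2.45 (exact permutation p = 0.0286), and 1.67 without the chromosome 4 cluster and 1.40 as a mean over genes of the log2 level (exact permutation p = 0.0286 in each). Comparing genes with at least 10 against those with at most 4 fingers instead gave 1.03 with an exact permutation p of 0.0857. Without that cluster the level was 0.471 ± 0.106 for genes with no finger match, 0.286 ± 0.0395 for 2 to 4 fingers, 0.927 ± 0.133 for 8 to 11 and 1.26 ± 0.134 for 16 or more. Among dispersed genes alone it was 0.162 ± 0.0415 for 2 to 4 fingers, 0.568 ± 0.0794 for 8 to 11 and 1.16 ± 0.269 for 16 or more. This was not repeated without the 26 dispersed genes with under 50% unique words. The 3 genes with at most 1 finger that had more H3K9me3 than H3K4me3 in the last exon were Zfp503, Zfp703 and Zfp781, the last named after its values were seen. Zfp781, with a KRAB match and no finger match in its translated sequence, had 3.5 ± 0.985 with IgG at 1.51 and 0.804% unique words, and the other two had 0.496 ± 0.281 and 0.872 ± 0.454. Finger number, KRAB match and clustering go together in this family, and their separate parts were not tested.

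**Figure D3:**
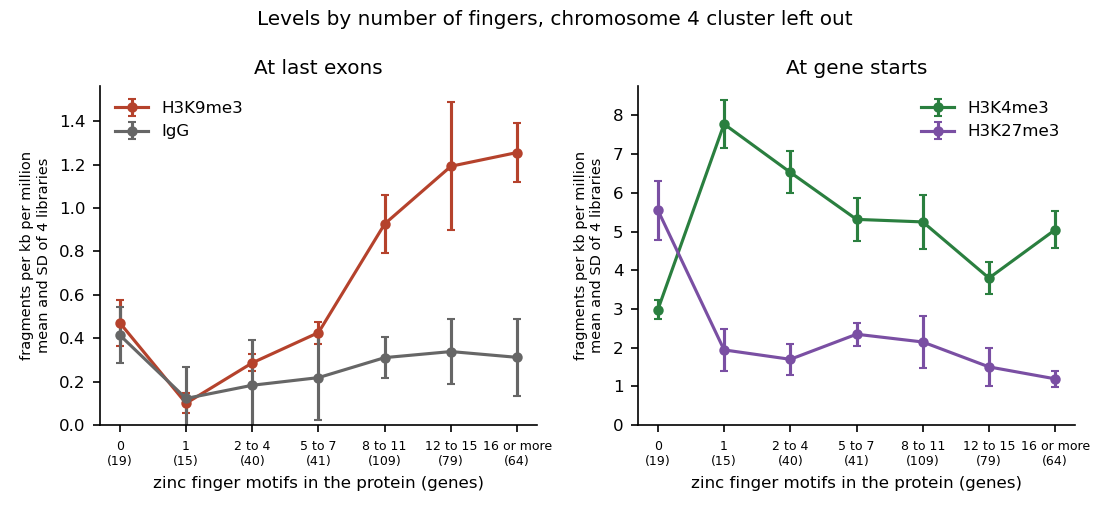
Levels (distinct fragments per kb per 1000000, mean and SD of 4 libraries) by the number of C2H2 finger motifs in the protein, with the number of genes in brackets, at last exons (left, H3K9me3 and IgG) and starts (right, H3K4me3 and H3K27me3), the chromosome 4 cluster left out. H3K9me3 is 0.286 at 2 to 4 fingers and 1.26 at 16 or more while IgG stays between 0.122 and 0.414, and H3K27me3 is highest, 5.55, in genes without a finger match.

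Some genes were called both for H3K4me3 over IgG at the start and for more H3K9me3 than H3K4me3 in the last exon. The second call compares 2 marks and does not by itself place H3K9me3 above IgG, which was called in 20 Zfp genes. Of the 116 Zfp genes with more H3K9me3 than H3K4me3 in the last exon, 47 (40.5%) were called for H3K4me3 over IgG at the start, 37 were tested and not called, and 32 had too few fragments to test. The 47 were 22.8% of the 206 called at the start, and those 206 were called among 385 genes, so H3K4me3 calls were no more common in the 116 than in the family. Zfp944 and Zfp758 show both ends, with H3K4me3 near 16 at the start and H3K9me3 of 4.64, 3.39, 4.01 and 2.71 in the last exon of Zfp944, and of 6.58, 3.12, 3.84 and 3.07 in that of Zfp758, for the first and second KO and the first and second WT animal. Zfp78 is the opposite case, with 6 H3K9me3 fragments in its last exon over all 4 libraries, and so is Zfp689 with 9. Both H3K4me3 and H3K27me3 were called at the start in 7 genes. In 18 genes H3K27me3 was called over IgG at the start and H3K9me3 over H3K4me3 in the last exon. Of all starts tested, 74.9% were called for H3K4me3 and 63.0% for H3K27me3, and of all last exons 18.1% for H3K9me3 over H3K4me3. The overlaps were not counted over all genes, so whether 7 and 18 are many or few was not tested. Bulk libraries do not show whether 2 marks lie on the same chromosome copy or in different cells.

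**Figure D4:**
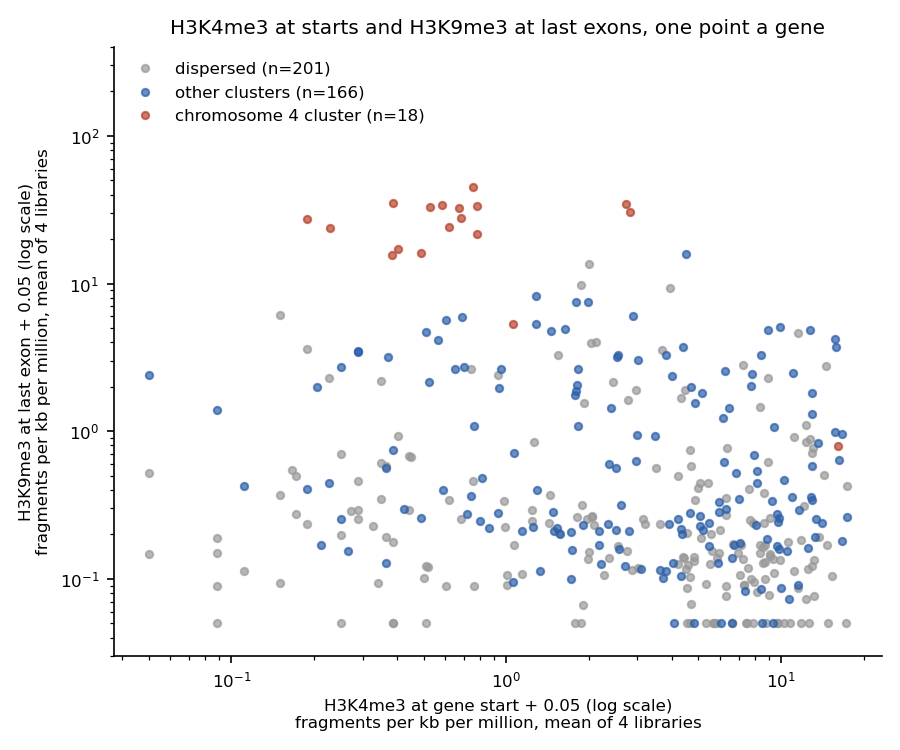
Each of the 385 Zfp genes by its H3K4me3 level at the start (x axis) and its H3K9me3 level at the last exon (y axis), both as distinct fragments per kb per 1000000 plus 0.05 on log scales, as the mean of 4 libraries. Of the 18 chromosome 4 genes 17 lie above 5 on the y axis, and the exception at the lower right is Zfp933 (0.740 at the last exon, 16 at the start).

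Genes of the family with known functions were taken from a list, and few of them carried H3K9me3. Zfp57 and Zfp445, which protect genomic imprints after fertilisation, had 0.120 ± 0.140 and 0.118 ± 0.128 at their last exons, from 2 and 8 fragments. Their starts differed, with H3K4me3 of 1.20, 1.39, 0 and 1.47 at Zfp57, not called against IgG, and of 8.02, 8.67, 8.47 and 8.07 at Zfp445, which was called (adjusted p = 0.00138). Zfp809, which silences retroviruses in embryonic cells, and Zfp568, which represses a placental transcript of Igf2, had H3K4me3 of 5.87 ± 1.72 and 8.04 ± 1.86 at their starts and 1 and 7 H3K9me3 fragments in their last exons. Zfp708, which binds a family of retrotransposons, was different, with 0.155 ± 0.310 for H3K4me3 and 1.66, 2.53, 1.75 and 1.80 for H3K9me3, and had more H3K9me3 than H3K4me3 in the last exon (log2 1.90 ± 0.54, SE, adjusted p = 0.00314), though 2 IgG fragments there gave an IgG mean of 1.67 ± 1.93. Zfp42, the pluripotency marker also called Rex1, had 1.82 ± 1.17 at its start and no H3K9me3 fragment, though only 50.8% of the words of its last exon were unique.

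Among genes with a part in male germ cells, Zfp541, needed for the passage through meiotic prophase, had H3K4me3 of 5.21, 5.88, 5.64 and 5.38 at its start, and Zfp819 had 8.37 ± 1.15. Zfp37 had 12.3 ± 3.55 at its start with 1.92, 0.475, 1.01 and 0.810 for H3K9me3, around an IgG mean of 1.13 ± 1.31. Zfp143, an activator of many housekeeping promoters, had H3K4me3 of 12.9 ± 1.39 at its start and 1 H3K9me3 fragment in its last exon. Zfp148 and Zfp281, which bind GC-rich promoters, had 6.25 ± 3.22 and 4.78 ± 0.257 with 3 and 6 H3K9me3 fragments, Zfp335 had 7.61 ± 1.83 with 2, and Zfp644, a partner of the H3K9 methyltransferases G9a and GLP, had 6.26 ± 2.41 with 1. Zfp36 had both H3K4me3 (5.01 ± 0.975) and H3K27me3 (6.21 ± 1.78) called at its start. Zfp217 had 0.239 ± 0.172 for H3K4me3 and 1.36 ± 2.49 for H3K27me3, with too few fragments to test either. Of the pair of neurotrophin receptor interacting factors, the last exon of Zfp110 is described above. Zfp369 had H3K4me3 of 8.94 ± 3.26 at its start with H3K9me3 of 2.18, 1.38, 2.45 and 2.94 in its last exon and no IgG fragment.

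The genes that make, read and remove H3K9me3 were described by their own starts. Of 21 such genes on a list, 18 could be tested and 14 had more H3K4me3 than IgG, a share near the 74.9% of all starts tested, with a median level of 7.92. Cbx5, which encodes the reader HP1 alpha, had 20.1 ± 2.75, Suv39h2, the testis form of the heterochromatin methyltransferase, 11.8 ± 3.27, Setdb2 8.56 ± 2.05 and the demethylase gene Kdm4d 10.8 ± 4.84. Setdb1 had 4.29 ± 1.04 and was not called, and Trim28, the corepressor of the KRAB proteins, had 0.183 ± 0.367 with too few fragments to test. These levels are for the outermost annotated 5′ end, and promoters of these genes more than 1 kb from it were not counted. Of 7 tested for H3K9me3 against H3K4me3 in the last exon, Morc2a was called for H3K9me3, 3 (Chaf1a, Daxx and Kdm4d) for H3K4me3, and 3 for neither. Of the 21, 0 were called between KO and WT.

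KO and WT spermatids were compared to ask whether the loss of H2A.B altered these marks, and no Zfp gene was called in any of 5 comparisons. By limma-voom, 0 of 178 Zfp genes tested differed in H3K9me3 at last exons (0.00% of all last exons tested were called), with 1 at an unadjusted p under 0.05 (21 of all 2002), and 0 of 353 in H3K9me3 over gene bodies (0.00% of all bodies), with 0 at an unadjusted p under 0.05 (10 of all 16090). For H3K4me3 at starts the numbers were 0 of 299 (0.00% of all starts) and 6 (368 of all 11888). For H3K27me3 over bodies they were 0 of 248 (0.00% of all bodies) and 0 (7 of all 13242), and for IgG over bodies 0 of 83 (0.00% of all bodies) and 2 (68 of all 4864). Limma-trend called 0 Zfp genes in each as well. With the sibling pair as a block, 0.0373% of all bodies were called for H3K9me3, 0.00755% for H3K27me3 and 0.761% for IgG, and of the Zfp genes 1 was, Zfp712 in IgG. Its IgG levels of 0.187, 8.84, 0 and 0.316 show that 1 KO library alone was high there.

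The pooled levels of KO and WT were close. On the log2 scale the H3K9me3 level at last exons was 1.25 and 0.44 in KO and 1.06 and 0.57 in WT, a mean difference of 0.03, with 0.20 in the first pair and -0.13 in the second (exact permutation p = 1). The first and second animals, which also had different date codes, differed by more than KO and WT did. H3K4me3 at starts was 2.48 and 2.23 in KO and 2.19 and 2.21 in WT, a difference of 0.15 (exact permutation p = 0.33, the smallest that 2 against 2 libraries can give). H3K27me3 over bodies differed by -0.09, with 0.06 and -0.24 within the pairs (exact permutation p = 0.667), and IgG over bodies by -0.19, with -0.39 and 0.02 (exact permutation p = 1). No level difference could reach an exact p under 0.33 in this design.

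Named by the smallest p in each direction, Zfp58 had H3K4me3 of 16 and 11.3 in KO and 4.23 and 5.87 in WT (log2 1.31 ± 0.41, unadjusted p = 0.00138, adjusted p = 1.0), and Zfp472 had 7.62 and 6.04 in KO and 15.5 and 9.78 in WT (-0.81 ± 0.35, adjusted p = 1.0). Both sets of KO and WT values were apart, but each was picked as an extreme among 299 tested. For H3K9me3 in last exons, Zfp65 had 1.67 and 1.90 in KO and 0.808 and 1.14 in WT, and Zfp617 had 0.290 and 0.458 against 1.32 and 0.733. Over bodies the extremes were Zfp595 (2.85 and 3.52 against 2.27 and 1.94) and Zfp39 (0.0314 and 0.0745 against 0.0827 and 0.337) for H3K9me3, and Zfp820 (0.312 and 0.303 against 0.169 and 0) and Zfp108 (0.139 and 0 against 0.320 and 0.666) for H3K27me3. In IgG, where no mark was targeted, Zfp704 (0.647 and 0.623 against 0.233 and 0.273) and Zfp37 (0.306 and 0.275 against 1.20 and 1.03) were apart too. None of the 10 passed adjustment.

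Fragment size over the Zfp bodies moved one way in both pairs. Short fragments (at most 120 bp) were set against long ones (at least 150 bp) as a log2 ratio. For H3K4me3 this ratio was -0.89 and -0.73 in KO and -1.54 and -1.67 in WT, so the genotypes did not overlap and differed by 0.80, with 0.65 in the first pair and 0.94 in the second (exact permutation p = 0.33). In IgG the ratio was 0.07 and 0.16 in KO and -1.14 and -0.32 in WT, a difference of 0.85 (exact permutation p = 0.33). The H3K27me3 ratio was -2.31 and -0.74 in KO and -3.00 and -1.52 in WT, and the H3K9me3 ratio -1.89 and -0.73 in KO and -2.48 and -1.28 in WT. In these marks KO and WT overlapped, since the first animals were below the second ones in both genotypes, and the mean differences were 0.74 and 0.57 (exact permutation p = 0.667 in each). Over all autosomal fragments the KO minus WT difference was 0.86 for H3K4me3, 0.69 for H3K27me3, 0.47 for H3K9me3 and 0.43 for IgG, so fragments at large moved in the direction seen over the Zfp genes.

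**Figure D5:**
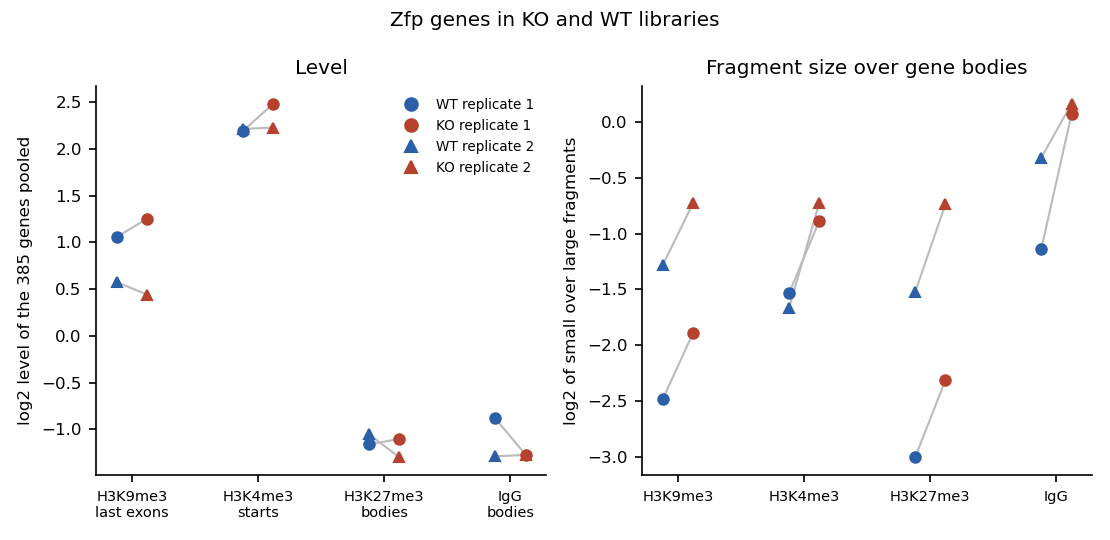
Left, log2 of the pooled level (distinct fragments per kb per 1000000) of the 385 Zfp genes in each library for H3K9me3 at last exons, H3K4me3 at starts, and H3K27me3 and IgG over bodies, with lines joining WT and KO libraries of the same number and date code. Right, log2 of the ratio of short to long fragments over Zfp bodies in the same libraries. Levels go in both directions between same-numbered libraries for H3K9me3, with 0.20 and -0.13, while all 8 lines of the fragment ratio rise from WT to KO.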

How the data were processed

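AutoCUT&RUN fragments of sorted spermatids were read from 16 libraries. Per the submitters' processing notes the authors aligned paired-end reads of 25 bases with Bowtie2 2.3.4.3 to mm10, and they deposited a list of fragment coordinates and lengths for each library, with no scaling and no pooling of animals. Copies with the same coordinates were still present, so each distinct coordinate pair was counted once per library, by the fragment's centre. Regions came from GENCODE vM21: 1 kb either side of the gene start, the gene body, the last exon, and the rest of the body. The gene start was the outermost annotated 5′ end of the gene. Finger motifs and KRAB matches were counted in the translated GENCODE coding sequences, and promoter sequences came from RefSeq. A level pools the fragments of a list over its length, per 1000000 distinct autosomal fragments.

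Counts were tested with limma-voom (limma 3.58.1, R 4.3.3) over all genes with at least 10 fragments, scaled to the autosomal total, with Benjamini-Hochberg adjustment at 0.05. Pooled levels were compared by two-sided exact permutation tests over libraries. Python 3.11.15, NumPy 2.4.6, pandas 2.3.3 and matplotlib 3.10.9 were used, and the fits were tested on simulated data. Same-numbered KO and WT libraries share a date code, and the paper used 2 sibling pairs for its replicates, so same numbers were taken as pairs. The labels do not name siblings. Replicate number and date code go together, so pair and date cannot be told apart. Deviations of same-numbered libraries over Zfp bodies correlated at 0.248 for H3K4me3, 0.288 for H3K27me3, 0.601 for H3K9me3 and 0.307 for IgG. Alternatives covered copies, overlap, scaling, filter, test, windows, cluster gaps, exon choice, unique sequence, left-out animals and the animal or the pair as a block.

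The named genes were those with the largest differences from IgG per mark, the highest last exon of each cluster, the extremes of KO against WT in each direction, and a list of known functions. The Zfp genes and all lists were chosen with earlier results of these data known. The p-values of KO against WT measure the spread between 2 animals a group. The exact tests between 2 targets compare 4 libraries with 4 libraries of the same 4 animals, KO and WT together, and do not use that pairing.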

Additional observations from a re-analysis of the deposited data

Results flagged for a closer look

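The 9 Zfp genes on the X chromosome, outside the autosomal rule, carried H3K9me3 at their last exons at a level of 2.13 ± 0.233 (SD, n = 4 libraries, 1.97 to 2.48) against 0.0358 ± 0.0717 for IgG. The H3K9me3 level in the rest of their bodies was 1.93 ± 0.252, and H3K4me3 at their starts was 1.64 ± 0.254. These levels are scaled to autosomal fragments, and X-linked genes were in no comparison above. The H3K9me3 libraries held 5009169 to 6746382 distinct fragments on autosomes, X and Y together, and 3136799 to 3963850 on autosomes alone. Levels of other X-linked genes were not computed, so whether the Zfp genes differ from the rest of the X chromosome was not tested.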

How the results depend on the processing

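Of the alternatives computed, 195 values were labelled the same, 27 lost the test's threshold, 12 moved and 11 changed sign. A tested value was the same if it kept its direction and side of the threshold, and a count if it stayed close to the main count. The KO minus WT tests of levels and fragment size could not cross the threshold, since their exact p cannot go below 0.33. The tally is therefore not a measure of robustness. The number of Zfp genes with more H3K9me3 than IgG at last exons, 20, became 55 with every fragment, 36 with an overlap of 1 bp, 63 without a filter, 61 with limma-trend, 48 with the animal as a block, 0 with quasi-Poisson (chosen after seeing the data, 41 of 183 at an unadjusted p under 0.05) and 0 to 10 with 1 animal left out. Scaled to the autosomes plus X and Y that number was 14, and by the median of ratios 18. For the fits from every fragment to the animal as a block, the numbers over all last exons are given above. More H3K4me3 than IgG at starts fell from 206 to 68 genes under median-of-ratios scaling. With the pair as a block, IgG over bodies gave 1 Zfp call between KO and WT, and the other KO and WT counts of Zfp genes stayed at 0. With the animal as a block the counts were 205 for H3K4me3 and 50 for H3K27me3 over IgG at starts and 118 for H3K9me3 over H3K4me3. In that block the level contrasts were 5.0 for the ends of the gene, 2.3 against other genes, 2.61 against olfactory receptor genes, 2.01 for clustered genes and 2.45 for many fingers. Its exact sign-flip p cannot go below 0.13. Leaving out animals gave 4.68 to 5.32, 1.75 to 2.66, 2.2 to 2.99, 1.88 to 2.35 and 2.19 to 2.73 in the same order, where the exact p cannot go below 0.1. With every fragment the contrast with other genes was 1.24, and at least 10 against at most 4 fingers gave 1.03.

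Between KO and WT, the H3K9me3 difference at last exons was -0.20 with every fragment and -0.37 to 0.44 with animals left out, including -0.21 without the second WT animal. With the mean of log levels, H3K27me3 over bodies gave 0.069 and IgG 0.11, and leaving out animals gave -0.19 to 0.0064 and -0.39 to 0.017. The fragment-size difference ranged from -0.048 to 1.52 for H3K27me3 and from -0.027 to 1.17 for H3K9me3. The cause was not tested. Few-finger genes with over 90% unique words gave no value, since IgG had no fragment there. The shallow IgG libraries limit every call against them at single exons, where limma-voom leaned toward IgG (126 lower, 66 higher over all last exons).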
